A study of Mus musculus with 6 samples.

Results

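The genes described here are the numbered cadherin genes of the mouse and the protocadherin genes that lie outside the clustered Pcdha, Pcdhb and Pcdhg arrays, measured in retinoic acid-treated embryoid bodies. They were chosen by symbol alone, as Cdh or Pcdh followed by a number, with Pcdh11x included. This rule found 35 of the 24002 genes in the expression table, 23 of them Cdh genes and 12 of them Pcdh genes. By textbook classification, 18 are classical cadherins (5 of type I and 13 of type II) and 9 are delta-protocadherins. The others are not classical: Cdh13, Cdh16, Cdh17, Cdh23 and Cdh26 are atypical cadherins, and Pcdh12, Pcdh15 and Pcdh20 are protocadherins outside the delta groups used here.

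Cadherins are calcium-dependent adhesion proteins whose extracellular repeats bind cadherins on the facing cell. Classical cadherins bind p120 and beta-catenin through their cytoplasmic tails, and alpha-catenin links that complex to actin. During formation of the neural tube, the neuroepithelium is known to replace the epithelial cadherin Cdh1 with Cdh2, and type II cadherins take part in the sorting of neurons into nuclei and motor pools. Delta-protocadherins adhere weakly and signal through tails that lack catenin binding, and several are known from axon growth and neural circuit formation.

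R1, a mouse embryonic stem cell line, was grown in medium with 15% serum replacement and 1000 U/ml LIF, formed into embryoid bodies in hanging drops for 48 h and kept in retinoic acid until day 6. The labels give the retinoic acid as 0.5 mM, a unit that is uncertain because micromolar doses are usual. RNA-seq of polyadenylated RNA gave 3 replicates of this condition, and no untreated or earlier sample is set beside them, so the data give levels and no change over time. ATAC-seq of 3 further samples was not used for these genes. No label states that the replicates are separate cultures, so their spread may be technical.

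Values are FPKM, a level scaled to transcript length and library size, which summed to between 477760 and 524717 per replicate. Total reads are not known. From the spacing of low values, replicate 1 was estimated at 1.56 times the depth of replicate 2 and 1.17 times that of replicate 3. These estimates rest on the most common ratio, shared by 252 of 1046 and 256 of 1170 low genes compared. The labels call the cells embryonic stem cells, but the pluripotency genes Pou5f1 and Nanog averaged 0.815 ± 0.0792 and 0.0879 ± 0.0318 FPKM (SD, n = 3). Of the 5 pluripotent cell markers listed, 2 reached 1 FPKM in all 3 replicates, Dppa5a at 15.6 ± 2.48 and Zfp42 at 2.14 ± 0.542 FPKM. By the same rule, 10 of 10 neuron markers and 8 of 8 neural progenitor markers reached 1 FPKM in all 3 replicates. Markers of extraembryonic endoderm (10 of 10) and of simple epithelium (6 of 6) also did. In such mixed material, fewer cells of a type and less RNA per cell cannot be told apart.

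Of the 35 genes, 21 reached 1 FPKM in all 3 replicates, the rule for an expressed gene below. That is 60% of the members, against 50.7% of all genes in the table. The median of the member means was 1.71 FPKM, against 1.31 FPKM over all genes. Among expressed genes alone the medians were 8.50 FPKM for the members and 10.01 FPKM for the whole table, so as a group the members stood near the middle of the transcriptome. Cdh2 was the exception in height, at percentile 96.3 of all genes. The members divided unevenly by role: 3 of 5 type I cadherins, 9 of 13 type II cadherins, 1 of 5 atypical cadherins, 3 of 4 delta-1 protocadherins, 5 of 5 delta-2 protocadherins and 0 of 3 other protocadherins were expressed. The expressed member with the lowest mean was Cdh7 at 1.62 FPKM, and the highest member below the threshold was Cdh12 at 0.918 FPKM.

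**Figure D1:**
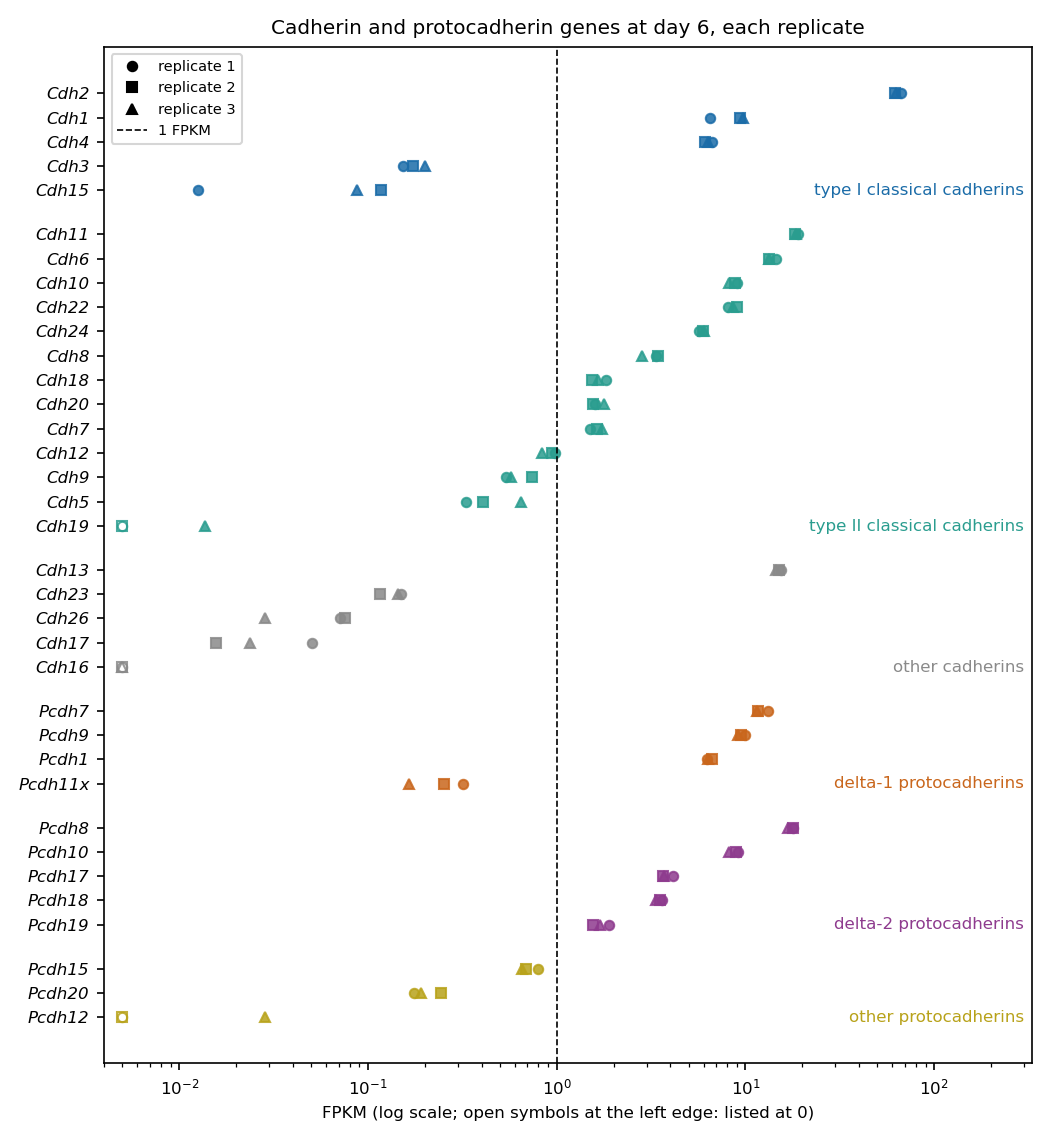
FPKM of the 35 genes in each of the 3 replicates (circle, square and triangle) on a log axis, grouped by role, with open symbols at the left edge for values listed at 0 and a dashed line at 1 FPKM. Cdh2 stands apart at 62.3 to 67.0 FPKM, all 5 delta-2 protocadherins lie right of the line, and all but Cdh13 of the atypical cadherins lie left of it.

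Among the type I classical cadherins, Cdh2 (N-cadherin), the cadherin of the neural tube and of neurons, had 67.0, 62.3 and 63.1 FPKM in replicates 1, 2 and 3. Its mean of 64.1 ± 2.51 FPKM (SD, n = 3) was the highest of all members and made up 80.9% ± 2.20 of the summed type I FPKM. Cdh1 (E-cadherin), the cadherin of epithelia and of pluripotent cells, had 6.47, 9.31 and 9.72 FPKM. Cdh2 thus exceeded Cdh1 by 10.4, 6.70 and 6.49 times in replicates 1, 2 and 3, a mean log2 ratio of 2.80 ± 0.34 on the FPKM + 1 scale, and the ranges of the 2 genes did not overlap. Cdh4 (R-cadherin), known from retina and brain, had 6.65, 6.10 and 6.31 FPKM, a range that overlapped the lowest value of Cdh1. Cdh3 (P-cadherin), known from placenta and surface epithelia, had 0.154, 0.174 and 0.201 FPKM. Cdh15 (M-cadherin), the cadherin of muscle precursors, had 0.0125, 0.117 and 0.0879 FPKM, and 0 of 5 skeletal muscle markers were expressed, the highest of them at a mean of 0.352 FPKM.

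Cdh1 was the expressed member whose level varied most between replicates. Its coefficient of variation was 20.9%, whereas the other expressed members lay between 1.63% and 10.5%. On the log2(FPKM + 1) scale its SD was 0.286, against a median of 0.065 for the expressed members and 0.060 for all genes whose mean reached 1 FPKM, and 1.79% of those genes had an SD at least as large. The value in replicate 1 was 68.0% of the mean of replicates 2 and 3. Among the 21 it took rank 12 in replicate 1 and ranks 8 and 7 in replicates 2 and 3, a shift of 5 places, and no other expressed member shifted by more than 3.

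Markers of other cell types moved between the replicates with Cdh1. The summed FPKM of 6 simple epithelium markers was 113, 174 and 175 in replicates 1, 2 and 3, so that replicate 1 stood at 64.8% of the mean of the others. Gene by gene, 6 of 6 markers were lowest in replicate 1, against 36.5% of all genes whose mean reached 1 FPKM. Epcam, an adhesion gene of epithelia, had 7.86, 12.7 and 12.8 FPKM. The summed FPKM of 10 extraembryonic endoderm markers was 494, 677 and 686, and replicate 1 stood at 72.5% of the mean of the others, with 10 of 10 markers lowest there. None of these markers was listed at 0. Both lists were chosen with earlier results of these data known, in which endoderm genes were lower in replicate 1. The counts are therefore a description and not separate support for the pattern. Pluripotent cell markers summed to 17.4, 17.1 and 21.8 FPKM, most of it Dppa5a at 15.0, 13.5 and 18.3 FPKM, with 2 of 5 expressed. The part of these cell types in the level of Cdh1 was not tested.

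**Figure D2:**
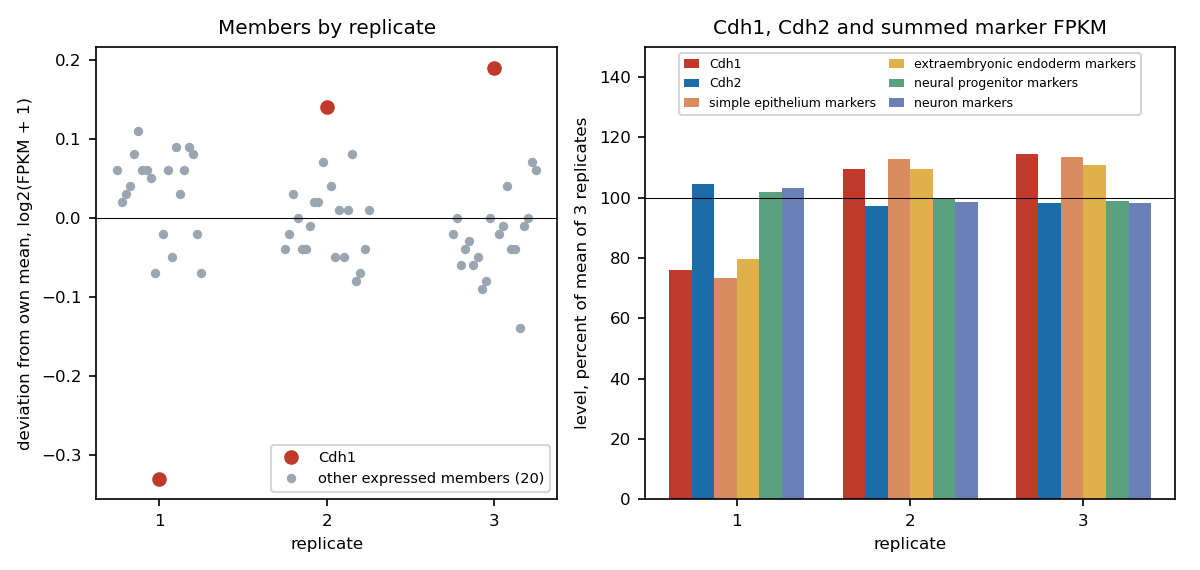
Left, deviation of each of the 21 expressed members from its own mean, in log2(FPKM + 1), by replicate, with Cdh1 in red and the others in grey. Right, Cdh1, Cdh2 and the summed FPKM of 4 marker lists as percent of their mean over the 3 replicates; Cdh1 and the simple epithelium and endoderm markers are low in replicate 1, where Cdh2 and the neuron markers are slightly high.

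Type II classical cadherins, known for combinatorial expression in neurons, were led by Cdh11 and Cdh6. Cdh11, known from mesenchyme, bone and brain, had 19.0, 18.4 and 18.6 FPKM, with the smallest coefficient of variation of any expressed member (1.63%). Fibroblast markers were low beside it: 0 of 5 were expressed, the highest being Pdgfrb at 0.571 ± 0.0455 FPKM (SD, n = 3). Cdh6, known from kidney, neural crest and neural tube, had 14.5, 13.3 and 13.3 FPKM. The ranges of Cdh11 and Cdh6 did not overlap.

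A second tier of type II genes stood between 5 and 10 FPKM. Cdh10, a brain cadherin, had 9.0, 8.80 and 8.16 FPKM and Cdh22, known from pituitary and brain, had 8.12, 9.05 and 8.59 FPKM. These ranges overlapped, and Cdh10 was above Cdh22 in 1 of the 3 replicates. Cdh24 had 5.65, 5.93 and 6.06 FPKM. Below it came Cdh8, known from cortex and sensory neurons, at 3.37, 3.45 and 2.83 FPKM. Its coefficient of variation of 10.5% was the largest of the expressed members after that of Cdh1.

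The remaining expressed type II genes were indistinguishable from each other. Cdh18 averaged 1.67 ± 0.140, Cdh20 1.64 ± 0.110 and Cdh7 1.62 ± 0.118 FPKM (SD, n = 3), and their ranges overlapped. Cdh7 is known from migrating neural crest in the chick, and Cdh20 from motor neurons, where its chick counterpart has been called MN-cadherin. Cdh12, a brain cadherin, came close to the threshold at 0.978, 0.941 and 0.835 FPKM without reaching it in any replicate. Cdh9, known from hippocampal synapses, averaged 0.618 ± 0.110 FPKM.

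Cdh5 and Cdh19, the type II cadherins best known as markers of a cell type, were low. Cdh5 (VE-cadherin), the cadherin of endothelium, had 0.330, 0.406 and 0.643 FPKM. The 6 endothelial markers fixed beside it summed to 1.24, 1.09 and 1.35 FPKM, and 0 of 6 were expressed. Cdh19, known from Schwann cell precursors, was listed at 0 in replicates 1 and 2 and at 0.0136 FPKM in replicate 3. Sox10, a transcription factor of neural crest and glia, was not low, at 19.8, 22.1 and 21.3 FPKM. It also serves oligodendrocytes, and 3 of the 6 markers of neural crest and Schwann cell precursors were expressed.

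Of the atypical cadherins, Cdh13 alone was expressed. Cdh13 (T-cadherin) is held in the membrane by a lipid anchor and lacks the cytoplasmic tail that binds catenins. It had 15.5, 15.0 and 14.6 FPKM, rank 4 of the expressed members in every replicate. Cdh23, a component of hair cell tip links, had 0.150, 0.116 and 0.144 FPKM. The epithelial genes Cdh26 and Cdh17 (the cadherin of intestine) averaged 0.0583 and 0.0299 FPKM, and Cdh16, the cadherin of kidney tubules, was listed at 0 in every replicate.

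Delta-1 protocadherins carry a conserved tail motif that binds protein phosphatase 1. Pcdh7 had 13.1, 11.7 and 11.5 FPKM and Pcdh9 9.94, 9.47 and 9.12 FPKM, with ranges that did not overlap. Pcdh1, which is also known from airway epithelium, followed at 6.28, 6.61 and 6.30 FPKM. The X-linked Pcdh11x was the delta-1 gene below the threshold, at 0.320, 0.254 and 0.164 FPKM.

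Delta-2 protocadherins were expressed without exception, at levels that differed widely. Pcdh8, known as paraxial protocadherin in early mesoderm and as an activity-regulated synaptic protein in neurons, was highest at 17.8, 17.8 and 16.8 FPKM. Pcdh10 (OL-protocadherin), which acts on the WAVE complex and axon growth, had 9.18, 8.89 and 8.19 FPKM. Pcdh17, which also recruits WAVE at axon contacts, had 4.12, 3.67 and 3.70 FPKM, and Pcdh18 had 3.60, 3.51 and 3.36 FPKM. The X-linked Pcdh19, whose human counterpart is mutated in an epilepsy of girls, was lowest at 1.89, 1.56 and 1.69 FPKM. No neighbours in this order had overlapping ranges.

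The other protocadherins were below 1 FPKM. Pcdh15, the partner of Cdh23 in tip links, averaged 0.711 ± 0.0765 FPKM and Pcdh20 0.204 ± 0.0356 FPKM (SD, n = 3). Pcdh12, known from endothelium and trophoblast, was listed at 0 in replicates 1 and 2 and at 0.0286 FPKM in replicate 3. Cdh16, Cdh19 and Pcdh12 were the 3 members with a value listed at 0 in at least 1 replicate. An exact 0 in such a table can be a failed estimate, so it is not read as absence.

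Across all roles, the order of the levels was well resolved at the top and blurred in the middle. Cdh2, Cdh11, Pcdh8, Cdh13, Cdh6 and Pcdh7 held ranks 1 to 6 in every replicate, each with a range above that of the next gene. From Pcdh9 through Pcdh10, Cdh10, Cdh22, Cdh1 and Pcdh1 to Cdh4, each gene overlapped its neighbour. Of the 20 neighbouring pairs of expressed members, 10 had ranges that did not overlap, and 10 of the 21 genes had the same rank in all 3 replicates. The summed FPKM of all 35 genes was 229.6, 223 and 221 in replicates 1, 2 and 3, of which Cdh2 supplied 28.6% ± 0.640 (SD, n = 3).

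More of the expressed members had their highest value in replicate 1 than in either other replicate. They were 13 of 21 (61.9%), against 36.3% of all genes whose mean reached 1 FPKM. The shift was small, with a median deviation of 0.052 in log2(FPKM + 1) for these 21 genes and 0.000 for all such genes. Members lowest in replicate 1 were Cdh1, Cdh7, Cdh22, Cdh24 and Pcdh1, or 23.8%, against 36.5% of all such genes. Neuron markers were highest in replicate 1 in 10 of 10 cases, with sums of 2653, 2529 and 2521 FPKM, and neural progenitor markers in 5 of 8. Motor neuron markers did not follow, with 2 of 6 highest and 2 of 6 lowest in replicate 1 and sums of 215, 218 and 208 FPKM. These marker lists too were chosen with earlier results of these data known, so their counts are a description. The part of these cell types in the members' pattern was not tested.

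Most genes for catenins and other linkers of the junction had RNA levels above those of most cadherin genes. Of 12 genes for catenins and linkers of the junction, 11 were expressed, with a median of 17.8 FPKM. Ctnnb1 (beta-catenin), which also acts in Wnt signalling, had 201, 195 and 200 FPKM. Ctnnd1 (p120-catenin) averaged 33.2 ± 1.02 FPKM and its relatives Arvcf and Ctnnd2, of which Ctnnd2 is neuronal, 38.0 ± 1.05 and 16.2 ± 0.840 FPKM (SD, n = 3). Both the epithelial and the neural alpha-catenin were present, Ctnna1 with 34.8, 36.6 and 35.8 FPKM and Ctnna2 with 31.4, 29.1 and 29.1 FPKM. Ctnna3, known from heart and testis, was the gene below the threshold, at 0.265 ± 0.0352 FPKM. Jup (plakoglobin) had 10.7, 12.5 and 12.1 FPKM and Vcl (vinculin), which binds tensed alpha-catenin, 20.1, 19.5 and 18.6 FPKM.

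Nectins, immunoglobulin-type adhesion proteins that join cadherins at junctions, were expressed in 3 of 4 cases under their older symbols. Pvrl2 averaged 25.7 ± 0.925, Pvrl1 23.1 ± 0.683 and Pvrl3 8.18 ± 0.424 FPKM (SD, n = 3), while Pvrl4 stood at 0.424 ± 0.0775. Among 9 genes known as repressors of Cdh1, 5 were expressed. Tcf3, Zeb1, Tcf4 and Zeb2 averaged 21.1 ± 0.385, 16.5 ± 0.888, 15.2 ± 0.164 and 5.55 ± 0.189 FPKM. In replicates 1, 2 and 3 Zeb1 had 17.5, 15.7 and 16.2 FPKM and Snai1 2.74, 4.88 and 4.70 FPKM. Of the 5 expressed repressors, 1 was lowest and 2 were highest in replicate 1, and the whole list summed to 62.9, 62.7 and 63.9 FPKM. Snai2, Snai3, Twist1 and Twist2 were below 1 FPKM, the highest being Twist1 at 0.619 ± 0.238.

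Genes that cut cadherins were expressed in 7 of 8 cases. Adam10, the main protease that sheds the Cdh1 and Cdh2 ectodomains, had 35.2, 37.2 and 38.3 FPKM. Furin, a proprotein convertase that matures classical cadherins, averaged 5.40 ± 0.188 FPKM (SD, n = 3), and Pcsk5 was below the threshold at 0.946 ± 0.0451. All 9 genes of the WAVE complex, the actin regulator that several delta-2 protocadherins bind, were expressed, with a median of 17.9 FPKM. Of these, the neuronal Wasf1 averaged 50.6 ± 0.716, Cyfip2 23.1 ± 0.934 and Nckap1 17.9 ± 0.134 FPKM, and Wasf2 was lowest at 5.75 ± 0.283.

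**Figure D3:**
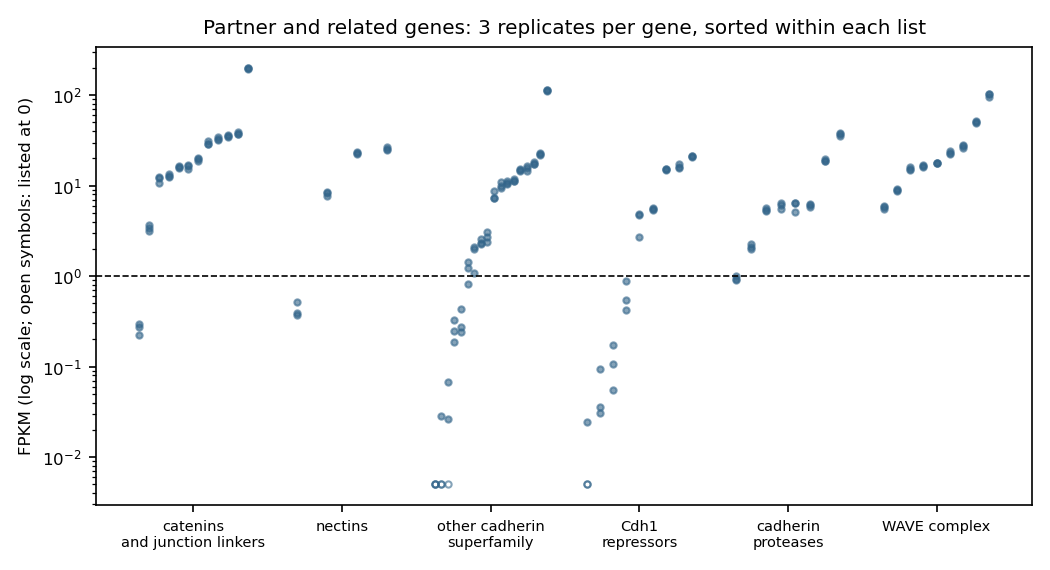
FPKM on a log axis for the genes of 6 partner lists, with 3 points per gene (1 per replicate), genes sorted by mean within each list, open symbols for values listed at 0 and a dashed line at 1 FPKM. The highest gene among the catenins is Ctnnb1 at 199 FPKM, and all 9 WAVE genes lie above the line.

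Many members follow each other in the order of protein-coding genes, and in several such runs neighbours differed widely in level. Here, directly beside means that no protein-coding gene lies between, whatever the distance in bases. In the RefSeq annotation of assembly GRCm38.p6, used here for gene order alone, chromosome 15 carries Cdh6, Cdh9, Cdh10, Cdh12 and Cdh18 in this order with at most 1 protein-coding gene between neighbours. Along that run the means were 13.7, 0.618, 8.65, 0.918 and 1.67 FPKM, so that genes above and below 1 FPKM alternated along it. The alternation depends on that threshold: at 0.5 FPKM all of these genes count as expressed, and at 5 FPKM only Cdh6 and Cdh10 do. Chromosome 8 carries Cdh3 directly beside Cdh1, at means of 0.176 and 8.50 FPKM, and Cdh8, Cdh11 and Cdh5 in a row at 3.22, 18.7 and 0.460 FPKM. On chromosome 14, Pcdh8, Pcdh17, Pcdh20 and Pcdh9 follow each other with at most 2 protein-coding genes between neighbours, at 17.5, 3.83, 0.204 and 9.51 FPKM. Pcdh20 was thus below 1 FPKM directly beside Pcdh9 in gene order, and on chromosome 1 Cdh19 (0.00452 FPKM) directly beside Cdh7 (1.62 FPKM). Distances were not compared and can be large: promoter entries of Pcdh20 and Pcdh9 start at bases 88471347 and 93890620 of chromosome 14.

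**Figure D4:**
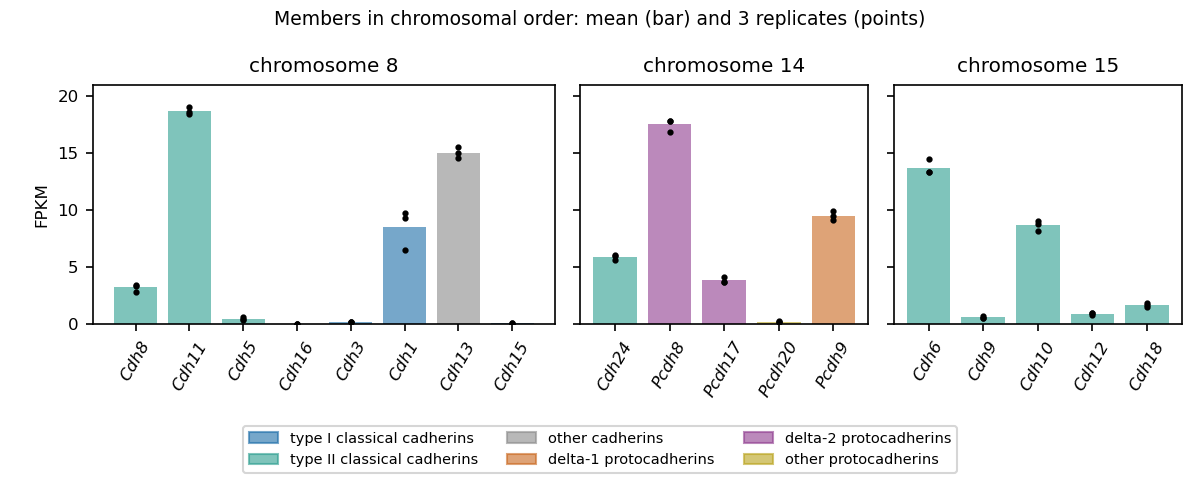
Mean FPKM (bars, linear axis) and the 3 replicates (points) for members on chromosomes 8, 14 and 15, placed in the order of the genes and coloured by role. On chromosome 15, Cdh6 and Cdh10 at 13.7 and 8.65 FPKM flank Cdh9 at 0.618 FPKM.

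Promoter sequence was compared between expressed and other members, because vertebrate promoters divide into CpG-rich and CpG-poor ones. RefSeq promoters of build GRCm38.p6, which run from 250 bases before to 50 after the transcription start, were matched for 22 of the 35 genes by symbol. Cdh1, Cdh2, Cdh3, Cdh4, Cdh5, Cdh11, Cdh13, Cdh16, Cdh17, Cdh19, Pcdh1, Pcdh11x and Pcdh12 had no match. Of 18 promoter entries of expressed members, 15 (83.3%) held 10 or more CpG dinucleotides, and of 7 entries of members below the threshold, 0 did. Over all 32851 promoters the share was 43.5%. It was 82.3% for the expressed genes of the table and 23.4% for genes not expressed, so the share among expressed members was near that of expressed genes in general. With a minimum of 8 in place of 10, chosen after the data were seen, 3 of the 7 entries below the threshold would count. Pcdh9 and Cdh7 have several entries each. With the most upstream entry of each gene alone, 13 of 15 expressed members held 10 or more, and 0 of 7 others. This count was also chosen after the data were seen.

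The median was 18 CpG in promoters of expressed members, with a range of 2 to 38, and 7 in those of the other members, with a range of 4 to 9. Expressed genes of the whole table had a median of 21 and genes not expressed 4. The expressed exceptions below 10 were Cdh10 with 2, Cdh6 with 8 and 1 of the 3 entries of Cdh7 with 4. The 150 bases just before the start are shown for Pcdh8 and Pcdh10, high members with many CpG, for Cdh10, the expressed member with the fewest, and for Pcdh20 and Cdh26, members below the threshold. Capitals mark CpG.
Pcdh8, chr14:79771313-79771462, minus strand: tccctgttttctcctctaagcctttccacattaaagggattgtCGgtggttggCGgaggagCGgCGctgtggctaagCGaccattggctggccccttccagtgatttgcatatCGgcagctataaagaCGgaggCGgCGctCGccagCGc
Pcdh10, chr3:45378248-45378397, plus strand: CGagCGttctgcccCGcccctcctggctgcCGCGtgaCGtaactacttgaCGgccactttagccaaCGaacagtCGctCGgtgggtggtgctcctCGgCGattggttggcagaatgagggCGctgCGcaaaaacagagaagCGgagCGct
Cdh10, chr15:18820179-18820328, plus strand: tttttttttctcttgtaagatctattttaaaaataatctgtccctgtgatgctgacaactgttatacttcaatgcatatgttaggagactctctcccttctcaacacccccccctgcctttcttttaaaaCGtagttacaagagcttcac
Pcdh20, chr14:88471397-88471546, minus strand: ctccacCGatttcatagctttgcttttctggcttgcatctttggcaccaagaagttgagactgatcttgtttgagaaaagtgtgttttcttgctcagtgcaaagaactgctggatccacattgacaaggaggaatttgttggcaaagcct
Cdh26, chr2:178430365-178430514, plus strand: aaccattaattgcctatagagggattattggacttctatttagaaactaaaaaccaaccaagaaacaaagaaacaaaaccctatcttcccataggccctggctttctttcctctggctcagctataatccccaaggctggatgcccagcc

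These stretches hold 11 CpG in Pcdh8, 16 in Pcdh10, 1 in Cdh10, 1 in Pcdh20 and 0 in Cdh26. Beside CpG, 3 short motifs were searched on both strands of the 25 member promoters. The TATA element TATAAA was found in 2 of them (8%, against 13.6% of all promoters), in Pcdh8 and Pcdh15, and the Pcdh8 copy lies near the right end of the stretch above. The E-box CACCTG, which Snai and Zeb factors are known to bind, was found in 5 of 25 (20%, against 20.2% of all promoters), in Pcdh7, Pcdh15 and the 3 entries of Cdh7. The nuclear receptor half-site AGGTCA, of the kind retinoic acid receptors bind in pairs, was found in 1 of 25 (4%, against 16.3%), in Cdh18. A match of this kind is a description of the letters and not a site.

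**Figure D5:**
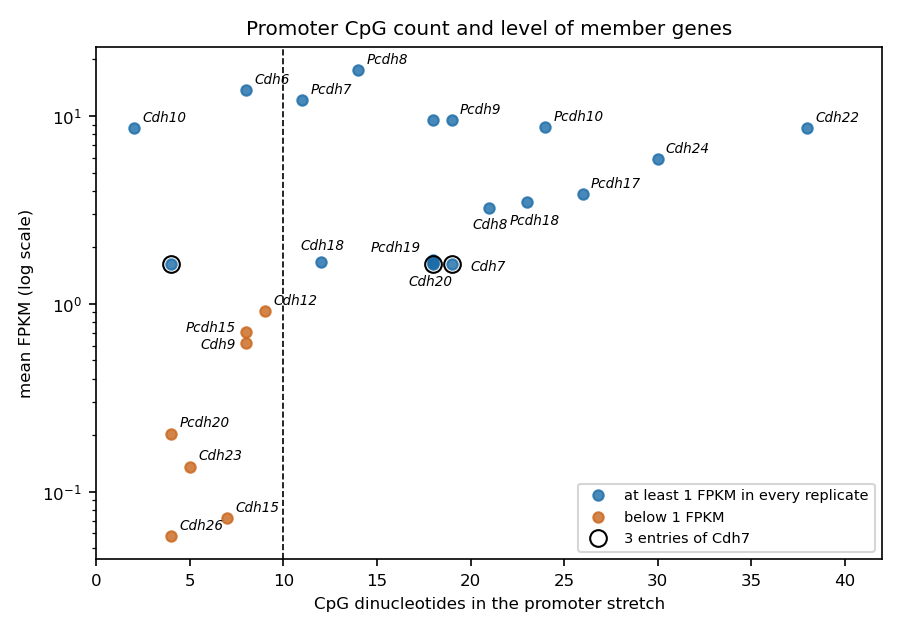
CpG count of each RefSeq promoter entry of 300 bases (horizontal axis) against the mean FPKM of its gene (vertical log axis) for the 22 members with an entry, in blue for expressed and in orange for other members, with a dashed line at 10 CpG. Every orange point lies left of the line, at 4 to 9 CpG, and Cdh10, Cdh6 and 1 entry of Cdh7 are the blue points beside them.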

How the data were processed

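RNA-seq of polyadenylated RNA was deposited for 3 samples of retinoic acid-treated R1 cells at day 6, assigned by their titles. The authors deposited a table of 24002 gene symbols whose header names no unit. Its values were read as FPKM because the submitters' processing notes name Bowtie, Cufflinks and mm9. Neither versions nor annotation nor strand use is given in the sources used here, so overlapping genes are uncertain. The joint ATAC-seq regions are in mm9 and were not used, since no mm9 annotation was at hand.

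From the deposited FPKM, means, SDs, ranks and log2(FPKM + 1) were computed with pandas 2.3.3 under Python 3.11.15. A gene counted as expressed where all 3 replicates reached 1 FPKM. The series has 1 condition, so no test was run and neighbouring genes were compared by replicate ranges. Relative depth came from the most common ratio of values between 0.001 and 0.1 FPKM (tolerance 0.004, natural log), a method tested on simulated reads. The simulation drew read counts at a fixed length per gene and did not model the estimation by Cufflinks. Members that averaged 5 FPKM or more are given in full. Members, gene lists, markers and roles were chosen with earlier results of these data known. Symbols were matched by name to RefSeq tables of GRCm38.p6, which held all 35 members for gene order and 22 for promoters. Alternatives were thresholds of 0.5 and 5 FPKM, the mean over replicates, upper quartile scaling, a pseudocount of 0.1, no filter and each replicate left out. The values of some list members are left out of the text.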

Additional observations from a re-analysis of the deposited data

How the results depend on the processing

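No paired analysis was possible because the series has 1 condition and the RNA-seq and ATAC-seq samples that share replicate numbers were not compared. Of 35 members, 24 were expressed at a threshold of 0.5 FPKM and 14 at 5 FPKM, against 21 at 1 FPKM, and 21 under every other alternative tried. By role, the threshold of 5 FPKM left 5 type II cadherins in place of 9 and 2 delta-2 protocadherins in place of 5. The threshold of 0.5 FPKM added 1 gene, Pcdh15, to the other protocadherins, which had 0. The mean log2 ratio of Cdh2 over Cdh1 ranged from 2.60 without replicate 1 to 2.92 with a pseudocount of 0.1.

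Leaving out a replicate moved the median SD of members between 0.038 and 0.064, against 0.065, the lowest value being that without replicate 1. With no filter on low values, 10 of 34 members above 0 were lowest in replicate 1 (29.4%, against 34.4% of all such genes), in place of 5 of 21. Highest there were 18 of 34 (52.9%, against 33.8%), in place of 13 of 21. Under upper quartile scaling, 4 of 21 members were lowest in replicate 1, against 33.5% of all genes, and 14 were highest there, against 39.5%. With a minimum of 8 CpG, 3 promoters of members below the threshold counted in place of 0. Read totals are unknown, so members near 0 cannot be ranked.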

Other observations

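The wider cadherin superfamily was expressed in 12 of 18 listed genes found in the table. Clstn1, a calsyntenin of axonal transport and synapses, stood highest at 114, 112 and 114 FPKM, with Clstn3 at 22.4 ± 0.329 and Clstn2 at 10.1 ± 0.758 FPKM (SD, n = 3). Celsr2 and Celsr3, the flamingo-type cadherins of planar polarity and axon tracts, averaged 17.5 ± 0.537 and 11.6 ± 0.391 FPKM and Celsr1 2.70 ± 0.349. The giant cadherins Dchs1 and Fat1 averaged 15.6 ± 1.02 and 10.7 ± 0.398 FPKM, Fat3 7.82 ± 0.795 and Fat4 2.41 ± 0.170, while Fat2 was listed at 0 in every replicate. Ret, a receptor of GDNF with cadherin-like repeats, averaged 14.8 ± 0.329 FPKM.

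The desmosomal cadherins Dsg2 and Dsc2 were lowest in replicate 1, as Cdh1 was, but most of the superfamily list was not. Of its 13 genes whose mean reached 1 FPKM, these 2 were lowest there and 9 were highest. Over all such genes, 36.5% were lowest and 36.3% highest in replicate 1. Dsg2 had 1.09, 2.10 and 1.97 FPKM and Dsc2 0.810, 1.24 and 1.43 FPKM in replicates 1, 2 and 3. The part of the low epithelial markers of replicate 1 in these values was not tested. The genes of the Cdhr group stood below 1 FPKM in 4 of 4 cases found, the highest being Cdhr2 at 0.315 FPKM.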
